A study of Mus musculus with 5 samples.

Results

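The ventral and the dorsal pancreatic bud of the mouse embryo were compared at E10.5 (E for embryonic day), across every locus of the expression table that carried a gene name. These were 12375 of 14053 loci, and the 2 pancreatic libraries were 2 of the 5 in the study. Both came from C57BL/6J embryos with no other genotype or treatment named, and poly(A) RNA was sequenced as paired ends. The other libraries, used here only to show where else a gene was present, were liver at E10.5 and foregut and medial foregut at E8.5. How the buds were isolated, and how many embryos went into each, are not given in the sources used. There was 1 library per tissue, so replicate error is unknown, no test was made, and every value describes these libraries.

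The pancreas forms from separate outgrowths of the gut tube. The dorsal bud grows out of dorsal endoderm that lies near the notochord and the aorta, and the ventral bud grows out of ventral foregut endoderm beside the liver and the bile duct, with which it shares precursors. The homeodomain factor Pdx1 and the bHLH factor Ptf1a mark progenitors of both buds, and the first glucagon cells appear early in the dorsal bud. A dissected bud also holds mesenchyme, vessels and blood.

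Levels are FPKM, sequenced fragments per kilobase of a transcript for each 1000000 mapped. A difference is the log2 of ventral FPKM + 1 over dorsal FPKM + 1, so a positive value means higher in ventral. A gene was counted as higher in a bud when the difference reached 2 in size, or 4 times in FPKM + 1, with at least 5 FPKM in the higher library. By that rule 113 loci were higher in ventral and 95 in dorsal pancreas, 0.913% and 0.768% of all named loci, or 1.68% together. The buds were close for most genes. Of the 8838 named loci that reached 5 FPKM in either library, 80.4% differed by less than 0.5 and 91.9% by less than 1, and the median difference over all named loci was 0.01. At the edge of the rule stood Postn (12.5 FPKM in ventral and 2.37 in dorsal) just inside on the ventral side and Plxnd1 (4.36 and 20.5) just inside on the dorsal side. Of the counted loci, 18 of 113 and 18 of 95 had several joined names, no strand, a strand opposite to the annotation, under 30% of the annotated span or a length under 1000 bp, against 14.3% of all named loci, and this is stated beside each such gene below. Loci longer than the annotated gene were not marked, among them Apoa2 at 669%, Sox17 at 533% and Mest at 638% of the annotated span. Whether such loci hold reads of neighbouring transcripts was not tested.

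**Figure D1:**
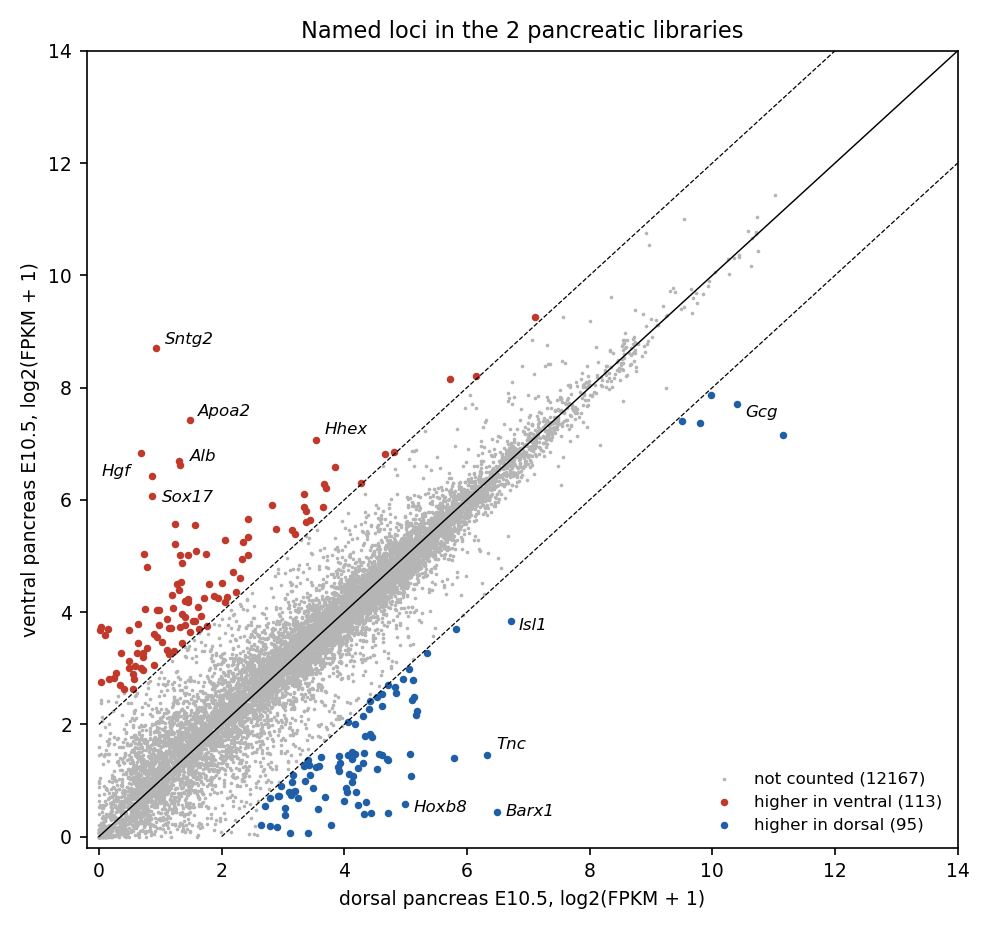
Each point is a named locus, with log2(FPKM + 1) in dorsal pancreas on the horizontal and in ventral pancreas on the vertical axis. The solid line marks equal levels and the dashed lines a difference of 2. The 113 loci counted as higher in ventral (red) and the 95 counted as higher in dorsal (blue) lie outside the dashed lines, with Sntg2 at 7.76 and Barx1 at -6.05 the farthest on each side.

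The tissue labels were checked first against factors that define pancreatic progenitors. Pdx1 (mm9 chromosome 5, 148081169 to 148092911) stood at 39.2 FPKM in the ventral and 40.9 in the dorsal bud, and at 0.0313 in liver. Ptf1a, needed for pancreatic and acinar fate, stood at 7.55 FPKM in the ventral and 8.32 in the dorsal bud and was listed at 0 in liver. Both markers were thus present in both buds at nearly the same level. The acinar enzyme gene Cpa1 (27.0 and 30.7 FPKM) was also alike. Of 8 acinar and exocrine genes found, 1 was counted as higher in ventral, the trypsin inhibitor gene Spink3 at 15.5 FPKM against 0.982, and the list median was -0.10.

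Around this shared core the progenitor factors leaned toward the ventral bud. Of 22 found, 2 were counted as higher in ventral and 0 in dorsal, 7 differed by more than 1 toward ventral and 1 toward dorsal, and the median was 0.34 against 0.01 over all named loci. Hhex (chromosome 19, 37504002 to 37515236), a homeobox gene needed for the liver and ventral pancreatic buds, stood at 133 FPKM in the ventral and 10.6 in the dorsal bud, a difference of 3.52. Onecut1, which acts upstream of Pdx1 and Neurog3 and in bile duct formation, stood at 78.0 and 18.3 FPKM, a difference of 2.03. Its paralog Onecut2 stood at 16.7 and 3.94 FPKM, its locus covering under 30% of the annotated gene. Further factors of early gut and pancreatic endoderm, short of the rule, also lay on the ventral side. Gata6, a zinc finger factor of pancreatic growth, stood at 33.6 FPKM against 11.2. Nr5a2, a nuclear receptor of exocrine cells, stood at 45.1 against 17.1 FPKM. On the other side lay Meis1, a homeobox cofactor of Hox proteins, at 32.8 FPKM against 73.1. Sox9, a progenitor and duct factor, differed by 0.53 (37.0 and 25.3 FPKM), Nkx6-1, later a beta cell factor, by -0.81 (7.05 and 13.1), and Mnx1, needed for dorsal bud formation, by -0.74 (11.03 and 19.1). Of the genes on the ventral side, Hhex, Onecut1, Onecut2 and Gata6 are also on the list of liver transcription factors below. In liver Gata6 stood at 27.0 and Nr5a2 at 22.7 FPKM.

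Of the 46 lists, the largest share counted as higher in ventral was among proteins the liver secretes into the blood. Of 35 found, 15 were counted as higher in ventral and 0 in dorsal pancreas, 28 differed by more than 1 toward ventral, and the median was 2.04. The apolipoprotein gene Apoa2 stood at 170 FPKM in the ventral and 1.79 in the dorsal bud, a difference of 5.94. Alb, for serum albumin, stood at 97.0 and 1.497 FPKM, a difference of 5.29. Apoa1, for the main protein of high density lipoprotein, stood at 45.8 and 1.97 FPKM. These 3 genes were thus near absent from the dorsal library and well expressed in the ventral one. Plg, for the clot-dissolving proenzyme plasminogen, stood at 31.5 and 1.73 FPKM, and the fibrinogen chain genes Fgg, Fga and Fgb at 49.3, 20.1 and 94.8 FPKM in ventral against 4.38, 1.47 and 13.3 in dorsal. Apob, for the protein that holds low density lipoprotein together, stood at 6.03 and 0.117 FPKM.

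Every one of the 15 counted secreted protein genes was lower in ventral pancreas than in liver, which the counting rule did not use. Their ventral level was 7.22% to 21.04% of the liver level, with a median of 10.3%. Alb stood at 1051 FPKM in liver, Apoa2 at 1618 and Fgg at 234. The summed level of the 35 genes was 10654 FPKM in liver against 2327 in the ventral and 735 in the dorsal bud. In bulk tissue, fewer cells of a type and less RNA per cell cannot be told apart, and whether liver cells were part of the ventral library was not tested. The other counted genes did not all keep to this range, and the range depends on which genes the list holds. Plasma protein genes that are not on it lay above the range, with Afm at 38.0%, C8a at 41.6% and Hc at 220% of the liver level. A joined locus of Cyp2c40, Cyp2c68 and Cyp2c69, also not on it, lay inside at 8.95%. Over all 71 genes higher in ventral with at least 5 FPKM in liver, the ventral level ran from 7.22% to 1450% of the liver level with a median of 59.7%, and 25 of them were above liver. Among these 25 were Hhex (71.2 FPKM in liver), Onecut1 (11.9), the glucose transporter gene Slc2a2 (39.3 in ventral and 20.6 in liver) and Flrt3 (76.7 and 5.29), for a membrane protein that binds FGF receptors.

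**Figure D2:**
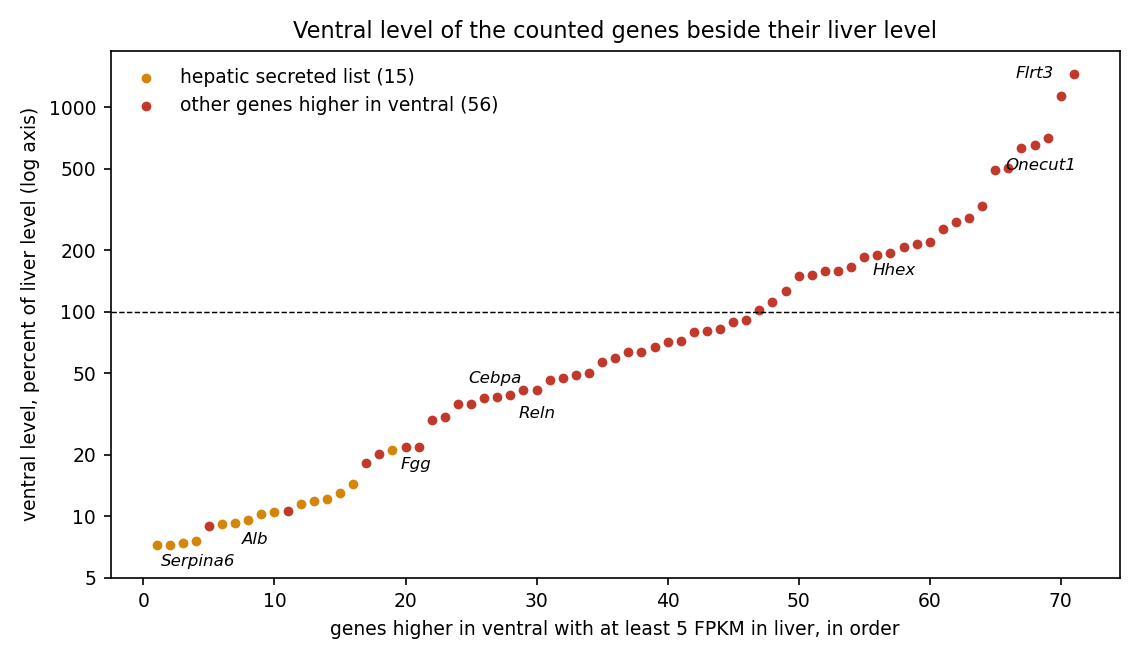
Ventral FPKM as a percent of liver FPKM, on a log axis, for the 71 genes higher in ventral than in dorsal pancreas that reached 5 FPKM in liver, in order. The 15 genes of the hepatic secreted list (orange) lie between 7.22% and 21.04%, while 25 others (red) lie above the dashed line of equal levels.

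Transcription factors of the liver, among them those of hepatoblasts, the liver progenitors, were also on the ventral side. Of 24 found, 4 were counted as higher in ventral and 0 in dorsal, 13 differed by more than 1 toward ventral, and the median was 1.24. Besides Hhex and Onecut1, already counted among progenitor factors, the counted genes were Lhx2 and Cebpa. Lhx2, a LIM homeobox gene of the liver's mesenchymal cells and not of hepatoblasts, stood at 8.65 FPKM against 0.284. Cebpa, a leucine zipper factor of hepatocyte genes, stood at 18.04 against 2.82. Tbx3, a T-box gene of early hepatoblasts, stood at 13.7 and 3.01 FPKM, a difference of 1.88. Hnf4a, a nuclear receptor central to hepatocytes, stood at 31.3 and 12.95 FPKM. Cebpa and Tbx3 were higher in liver, at 47.3 and 31.5 FPKM. Metabolic enzymes and transporters of hepatocytes had 4 of 39 counted as higher in ventral and 0 in dorsal, with a median of 0.89. Paqr9, a membrane receptor family gene, stood at 46.4 and 1.36 FPKM, and Bhmt, for an enzyme that makes methionine from betaine, at 31.9 and 0.668, its locus covering 3.96% of the annotated gene. Mttp, for the protein that loads lipid onto apolipoprotein B, stood at 23.4 FPKM against 3.90, and Slc2a2, already given for its liver level, was at 4.41 FPKM in dorsal pancreas.

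The counted genes could be compared further by where they lie and by the bases before their start sites. Some lay side by side, within 100000 bp of each other. Fgg, Fga and Fgb formed 1 such group (mm9 chromosome 3, 82811153 to 82853912) and Alb and Afm, for the albumin relative afamin (22.1 and 1.51 FPKM), formed another (chromosome 5, 90889928 to 91011556). The promoters of Alb, Afm, Fga and Fgb are shown because these neighbours differ together and are textbook targets of hepatocyte factors. These 4 were chosen after their values and motif matches were seen. The stretches run from 150 bases before to 20 bases after the start site in RefSeq on GRCm38.p6, 5′ to 3′ on the gene's strand, at chr5:90460720-90460889 (+) for Alb, chr5:90518799-90518968 (+) for Afm, chr3:83026003-83026172 (+) for Fga and chr3:83049844-83050013 (-) for Fgb. Capitals mark the letters GTTAAT, a core known from hepatocyte promoters, and TTGCNNAA, a C/EBP site, on either strand.
Alb: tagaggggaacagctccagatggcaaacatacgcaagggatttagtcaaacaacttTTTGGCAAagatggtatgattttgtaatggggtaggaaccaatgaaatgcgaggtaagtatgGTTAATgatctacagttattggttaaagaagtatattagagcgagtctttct
Afm: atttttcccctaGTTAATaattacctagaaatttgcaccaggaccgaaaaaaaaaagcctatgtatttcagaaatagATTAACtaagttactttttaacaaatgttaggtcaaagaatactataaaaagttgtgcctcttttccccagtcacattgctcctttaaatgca
Fga: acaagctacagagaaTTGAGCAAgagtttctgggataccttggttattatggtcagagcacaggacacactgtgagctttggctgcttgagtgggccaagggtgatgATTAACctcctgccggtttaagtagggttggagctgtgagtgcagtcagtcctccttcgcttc
Fgb: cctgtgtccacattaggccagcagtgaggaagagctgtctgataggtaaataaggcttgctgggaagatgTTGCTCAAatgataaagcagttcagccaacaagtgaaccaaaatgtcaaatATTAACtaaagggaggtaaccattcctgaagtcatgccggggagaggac
The GTTAAT letters are in each of these stretches, which were chosen for a match, and Alb, Fga and Fgb hold the C/EBP letters too. The neighbour not shown, Fgg, holds neither in its window.

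The same letters were counted over all RefSeq promoter windows, which run from 250 bases before to 50 after a start. A window was matched by symbol for 91 of the 113 loci higher in ventral, 69 of the 95 higher in dorsal and 9160 of all 12375. GTTAAT, searched on both strands, was in 20 of 124 windows of genes higher in ventral (16.1%), 5 of 92 of genes higher in dorsal (5.43%) and 4.71% of all windows. TTGCNNAA was in 18.5%, 6.52% and 7.91%. The ventral windows were poorer in G and C, with a median of 54.3% GC against 61.0% in dorsal and 60.7% over all. Among windows under 50% GC the GTTAAT letters were in 14 of 37 ventral windows (37.8%), 1 of 16 dorsal windows (6.25%) and 14.5% of all such windows, and the C/EBP letters in 8 of 37, 0 of 16 and 14.8%. The TATA box, TATAAA, was in 14.5% of ventral, 8.70% of dorsal and 7.21% of all windows, and below 50% GC in 6 of 37, 7 of 16 and 21.2%. These dorsal values rest on 16 windows. The GTTAAT letters were about as frequent before ventral genes with at least 5 FPKM in liver (16.7%) as before the rest (15.2%), and the C/EBP letters were in 23.1% and 10.9%. The FOXA letters TGTTTAC were in 4.03% of ventral, 2.17% of dorsal and 2.53% of all windows, and the bHLH letters CAGCTG in 12.1%, 20.7% and 15.7%. The HNF4 letters CAAAGTCCA were in 0 of the ventral and 0 of the dorsal windows, and in 0.346% of all. The homeodomain letters TAATTA were in 2.42%, 3.26% and 2.86%, and the GATA letters AGATAA in 4.84%, 7.61% and 6.48%. A match is a description of letters and not a bound site.

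Genes of the bile duct and of pancreatic ducts had 3 of 32 counted as higher in ventral and 1 in dorsal, with a median of 0.66. Hhex and Onecut1, already counted among progenitor and hepatic factors, were again among the 3, so only Sox17 was added by this list. Sox17 (chromosome 1, 4479390 to 4513655), an endoderm factor that later parts the bile duct from the ventral pancreas, stood at 65.9 FPKM in the ventral and 0.821 in the dorsal bud, a difference of 5.20. In the other libraries it stood at 1.10 FPKM in liver and 2.58 in foregut, so that the ventral bud was the only one of the 5 libraries above 5 FPKM. Sox17 is also an endothelial gene, and vessel markers, given further below, lay on both sides; their part in its difference was not tested. The gene counted as higher in dorsal was Foxf1a, a mesenchymal forkhead gene, at 1.48 and 18.8 FPKM, its locus opposite in strand to the annotation. Ggt1, for a duct surface enzyme, stood at 9.13 and 1.73 FPKM, a difference of 1.89.

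Beyond liver genes, 31 of the 113 ventral genes (27.4%) were under 5 FPKM in liver and in both E8.5 libraries, where 8.62% of the 8838 loci were. The rule takes genes that are low in the other bud, so a larger share than over all loci is partly built in. The largest difference of all was Sntg2 (chromosome 12, 30859558 to 31058141), for a syntrophin that anchors membrane proteins to dystrophin, at 414 FPKM in the ventral and 0.916 in the dorsal bud and at most 0.341 in the other 3 libraries. The second was Myo15, an unconventional myosin gene, at 113 and 0.601 FPKM, its locus covering 1.86% of the annotated gene. Hgf (chromosome 5, 16059325 to 16128450), a growth factor that mesenchymal cells send to epithelium, stood at 84.6 FPKM in the ventral and 0.816 in the dorsal bud, with 1.17 in liver. Met, its receptor, stood at 16.7 and 8.61 FPKM, a difference of 0.88. Ptpn5, a tyrosine phosphatase gene known from neurons, stood at 31.2 and 1.49 FPKM, and Adcy8, an adenylyl cyclase gene, at 36.8 and 4.11.

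Other ventral genes were shared with the E8.5 foregut but not with liver. There were 11 such genes, 9.73% of the 113 against 8.72% of the 8838 loci, which is near the background. Cxcr4, the receptor of the chemokine Cxcl12, stood at 31.9 FPKM in the ventral and 2.35 in the dorsal bud, 0.244 in liver and 15.3 in foregut. Cxcl12 stood at 34.4 and 11.8 FPKM, a difference of 1.47. Vstm2b, an immunoglobulin domain gene, stood at 27.0 and 0.730 FPKM, with 8.51 in foregut, and Vit, for the matrix protein vitrin, at 11.8 and 0.0139, with 10.2 in foregut. Of the 113 genes, 44 (38.9%) reached 5 FPKM in liver and in neither E8.5 library, against 3.90% of the 8838 loci, with the same limit from the rule.

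The 95 genes higher in dorsal had another distribution over the libraries that the rule did not use. Only 1 of them, Fam198b, reached 5 FPKM in liver and not at E8.5, while 37 (38.9%) did so at E8.5 and not in liver, against 8.72% of the 8838 loci. A further 39 (41.1%) were under 5 FPKM in all 3 other libraries. In all, 19 of 95 (20.0%) reached 5 FPKM in liver, against 71 of 113 ventral genes (62.8%) and 82.7% of the 8838 loci. In foregut 52.6% of the dorsal and 32.7% of the ventral genes did, against 86.2%. Both sets were thus below the background in foregut. The rule selects genes that differ between tissues, so distances of either set from the 8838 loci are partly built in.

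**Figure D3:**
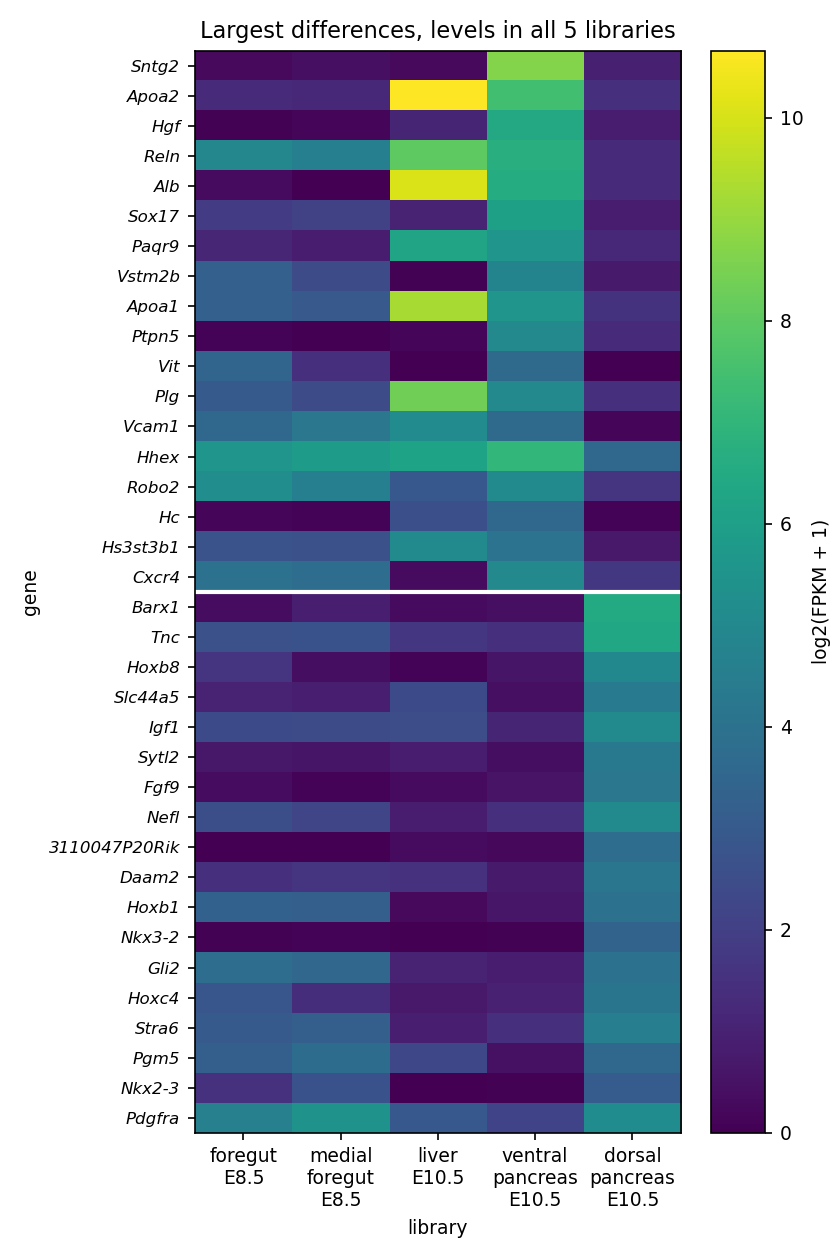
Levels in all 5 libraries, as log2(FPKM + 1), of the 18 genes with the largest difference on each side among counted loci of at least 1000 bp with 1 name and no strand or span limit that are reported here. Above the white line are genes higher in ventral, where Apoa2, Alb, Apoa1 and Plg are brighter in liver and Sntg2, Hgf, Sox17 and Ptpn5 stand out in ventral alone. Below it are genes higher in dorsal, where the liver column stays dark.

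Endocrine factors were on the dorsal side. Of 20 found, 3 were counted as higher in dorsal and 0 in ventral, 13 differed by more than 1 toward dorsal and 0 toward ventral, and the median was -1.20. Isl1 (chromosome 13, 117088466 to 117100027), a LIM homeobox factor of all islet cells and also of the dorsal pancreatic mesenchyme, stood at 13.3 FPKM in the ventral and 104 in the dorsal bud, a difference of -2.88. Irx1 and Irx2, Iroquois homeobox genes known from glucagon cells, stood at 4.01 and 3.85 FPKM in ventral against 23.6 and 20.1 in dorsal. Pax6, a paired box factor of hormone cells, stood at 7.24 and 26.2 FPKM, and Neurod1, a bHLH factor downstream of Neurog3, at 6.74 and 19.3. Neurog3 itself, the switch into endocrine fate, stood at 2.74 and 7.86 FPKM, a difference of -1.25, and Pax4, a beta cell lineage factor, at 2.22 and 3.80. Neurog3 and Pax4 differed by less than Isl1 and the Irx genes. Irx1 and Irx2 also stood at 16.7 and 7.90 FPKM in foregut at E8.5, where Gcg was listed at 0. The part of other cells in the differences of Isl1 and the Irx genes was not tested. Pax6 is also a neural gene, and neuronal markers are given below.

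Hormone and secretory granule genes showed the same side with larger levels. Of 22 found, 6 were counted as higher in dorsal and 0 in ventral, 18 differed by more than 1 toward dorsal, and the median was -1.76. Their summed level was 1108 FPKM in the ventral and 3977 in the dorsal bud. Gcg, for glucagon (chromosome 2, 62312638 to 62321998), stood at 208 and 1349 FPKM, a difference of -2.69. Pyy, for the gut and islet hormone peptide YY, stood at 167 and 722 FPKM, a difference of -2.10. Ins1, for insulin, stood at 1.62 and 16.4 FPKM, a difference of -2.73, at a locus of under 1000 bp. Hormone transcripts were thus present in both buds, with Gcg above Ins1 in each, and Ins2 was not analysed here. Slc38a5, a glutamine transporter gene of glucagon cells, stood at 165 and 886 FPKM, Pcsk2, the protease that cuts proglucagon, at 5.94 and 33.6, and the granule phosphatase gene Ptprn2 at 11.9 and 55.3. The member with the largest difference toward ventral, Ttr at 12.3 and 5.67 FPKM, is a locus opposite in strand to the annotation.

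**Figure D4:**
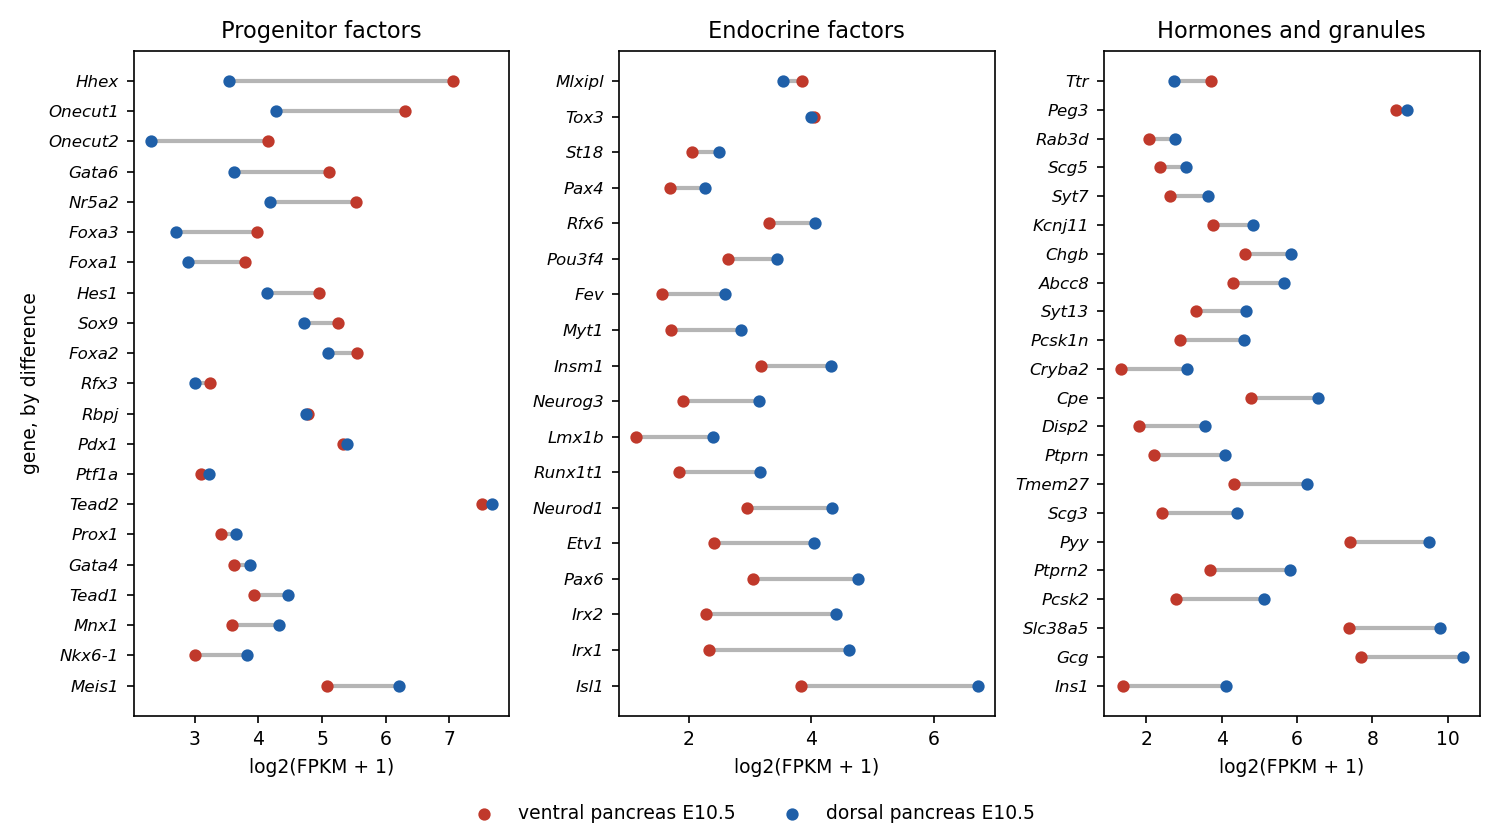
Levels as log2(FPKM + 1) in ventral (red) and dorsal (blue) pancreas for members of 3 lists reported here that reached 1 FPKM in either library, ordered by difference. Pdx1 and Ptf1a overlap or nearly so, Hhex and Onecut1 lie to the ventral side, and nearly all endocrine factors and hormone or granule genes lie to the dorsal side.

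Hox genes, which set position along the body axis, were the next group on the dorsal side. Of 7 found under a single name, 5 were counted as higher in dorsal and 0 in ventral, and the median was -3.16. Hoxb8 stood at 0.504 FPKM in the ventral and 30.9 in the dorsal bud, a difference of -4.41, Hoxb1 at 0.549 and 14.9, and Hoxc4 at 0.953 and 16.4. Hoxb3, opposite in strand to the annotation, stood at 1.61 and 24.9 FPKM, and Hoxa7, covering 5.77% of the annotated gene, at 1.24 and 14.1. Hoxa9, the most posterior of those named, lay the other way at 1.45 and 0.474 FPKM. Neighbouring loci lay on the same side, with 6 Hoxb loci counted between 96143710 and 96230513 on mm9 chromosome 11, 3 of them joined loci of several names. Of these, 4 are 2 intervals listed on both strands, Hoxb3 among them, and without strand marking their reads cannot be separated, so the 6 loci are 4 distinct intervals. Another pair of Hoxa loci was counted between 52105007 and 52168016 on chromosome 6. Their cofactors Meis1 and Meis3 (15.3 and 35.1 FPKM) differed by -1.13 and -1.15.

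Transcription factors of the stomach and spleen mesenchyme were also on the dorsal side, among them the gene with the largest dorsal difference, Barx1. Of 14 genes on the spleen and dorsal mesenchyme list, 9 were counted as higher in dorsal and 0 in ventral, with a median of -2.96, and their summed level was 52.2 FPKM in the ventral and 408 in the dorsal bud. Barx1 (chromosome 13, 48758346 to 48765966), a homeobox gene of stomach mesenchyme, stood at 0.360 FPKM in the ventral and 89.3 in the dorsal bud, a difference of -6.05, and at most 0.855 in the other 3 libraries. Nkx3-2, a homeobox gene that keeps the spleen and pancreas apart, stood at 0.0497 and 9.57 FPKM, and Nkx2-3, a spleen vessel and gut mesenchyme gene, at 0.0501 and 7.67. These 3 genes were thus nearly absent from the ventral library. Tlx1, the spleen homeobox gene, stood at 0.0197 and 4.99 FPKM, a difference of -2.55 just under the level of the rule. Six2, a gene of the stomach's pyloric mesenchyme, stood at 0.340 and 25.1 FPKM, its locus covering 27.6% of the annotated gene. The stomach and anterior gut list, which shares Barx1, Nkx3-2, Nkx2-3 and Isl1, among others, with it, had 8 of 21 counted as higher in dorsal and 0 in ventral, with a median of -0.39. Sox2, which marks stomach epithelium, stood at 1.19 and 0.464 FPKM. Cdx2, which marks intestinal epithelium, stood at 2.52 and 1.87 FPKM. Of 7 intestinal genes 0 were counted in either direction, which in so short a list is near the 1.68% of all named loci. Of these 7, 2 differed by more than 1 toward ventral and 0 toward dorsal.

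General mesenchymal genes were divided between the buds. Of 40 found, 9 were counted as higher in dorsal and 1 in ventral, 18 differed by more than 1 toward dorsal and 9 toward ventral, and the median was -0.69. Barx1, already given, is on this list too, so its counts are not separate from those above. Tnc, for the matrix protein tenascin C, stood at 1.73 and 79.7 FPKM, a difference of -4.88. Pdgfra, a receptor of mesenchymal cells, stood at 3.48 and 35.0 FPKM, a difference of -3.01, and Cdh11, a mesenchymal cadherin gene, at 4.62 and 34.3. The 1 gene counted as higher in ventral was Postn, for the matrix protein periostin. Summed levels of the list were 739 FPKM in the ventral and 1034 in the dorsal bud. Smooth muscle genes showed no common side, with 0 of 17 counted in ventral, 1 in dorsal and a median of 0.00. Des, for the muscle filament desmin, stood at 2.40 and 20.95 FPKM, while Myl9, a myosin light chain gene, stood at 17.8 and 4.33 and Cald1, for an actin-binding regulator, at 115 and 33.3. Genes of the mesothelium and the septum transversum, the mesenchyme that the liver grows into, were split, with 4 of 25 counted as higher in ventral and 5 in dorsal. On the ventral side were Hgf, Lhx2, Reln, for a secreted guidance protein, at 103 and 1.47 FPKM, and Efemp1, for a matrix protein, at 15.4 and 0.930. On the dorsal side, among others, were Bnc1, a zinc finger gene of mesothelium, at 0.125 and 6.46 FPKM, and Hlx, a homeobox gene of gut mesenchyme, at 1.73 and 15.6, besides Des and Foxf1a. Wt1, a defining mesothelial factor, stood at 1.41 and 4.43 FPKM. The part of different amounts of mesenchyme in these values was not tested.

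**Figure D5:**
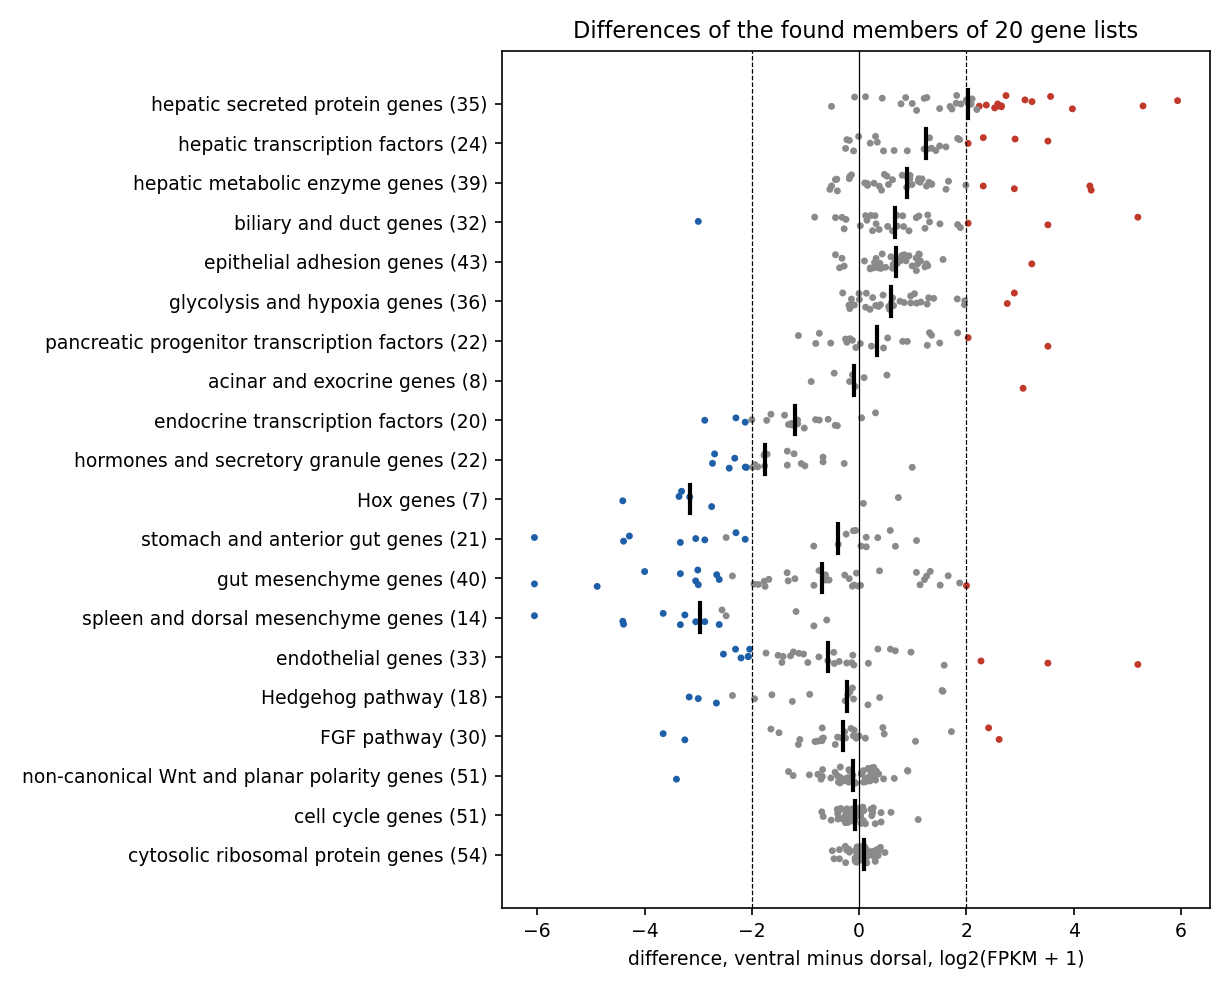
Each point is the ventral minus dorsal difference of a found member of the list named at left, with the number found in brackets, and the black bar is the median. Counted members are red (ventral) or blue (dorsal) and the dashed lines mark a difference of 2. The hepatic secreted list has the highest median (2.04), the Hox and spleen and dorsal mesenchyme lists the lowest (-3.16 and -2.96), and cell cycle and ribosomal genes stay near 0.

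Markers of vessels were on the dorsal side for the most part. Of 33 endothelial genes, 6 were counted as higher in dorsal and 3 in ventral, 14 differed by more than 1 toward dorsal and 4 toward ventral, and the median was -0.58. Cdh5, for the cadherin of endothelial junctions, stood at 1.37 and 10.7 FPKM, a difference of -2.30. Kdr, the main receptor for vascular endothelial growth factor, stood at 1.58 and 9.62 FPKM, and Tie1, an endothelial receptor gene, at 1.54 and 7.47. Pecam1, another junction gene, stood at 5.31 and 5.84 FPKM. The 3 members on the ventral side were Sox17 and Hhex, already named as endodermal factors, and Flt1, a receptor that binds the same growth factor, at 14.3 and 2.17 FPKM. Summed over the list, ventral stood at 335 FPKM and dorsal at 183. The sum and the median therefore point in different directions, since Sox17 and Hhex alone make up more than the excess.

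Blood markers were low in number and mixed. Of 11 erythroid genes, 2 were counted as higher in ventral and 1 in dorsal, with a median of -0.04. Hbb-y, for an embryonic globin, stood at 111 and 24.4 FPKM, and Slc4a1, for the red cell anion exchanger, at 28.5 and 1.56, its locus covering 18.4% of the annotated gene. Spnb1, for red cell spectrin, stood at 0.765 and 8.12 FPKM. Of 10 leukocyte genes 0 were counted in either direction, which in so short a list is near the 1.68% of all named loci. Of 28 neuronal genes 1 was counted as higher in dorsal and 0 in ventral, with a median of -0.26, and their summed level was 87.5 FPKM in the ventral and 174 in the dorsal bud. The counted gene was Nefl, for a neurofilament chain, at 1.79 and 32.8 FPKM. Of the 28, 7 differed by more than 1 toward dorsal and 1 toward ventral. Of 16 neural crest and glial genes 1 was counted as higher in dorsal, Ngfr, for a neurotrophin receptor, at 1.17 and 15.8 FPKM. The defining crest gene Sox10 (0.679 and 0.497 FPKM) was under 1 in both buds. Of 23 muscle genes, 1 was counted as higher in ventral, the heart myosin gene Myh7 at 7.75 and 0.406 FPKM, and 0 in dorsal. Of the 23, 6 differed by more than 1 toward ventral and 1 toward dorsal, with a median of 0.06, and their summed level was 41.2 FPKM in ventral, 28.2 in dorsal and 550 in liver. Short of the rule were the heart troponin gene Tnnt2 at 4.23 and 0.388 FPKM, the heart T-box genes Tbx5 at 2.88 and 0.0657 and Tbx20 at 1.45 and 0.0511, and the myosin light chain gene Myl3 at 3.01 and 0.119. Nkx2-5, a heart and spleen homeobox gene, lay the other way at 0.0358 and 4.77 FPKM. The part of these cells in the differences above was not tested.

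Epithelial adhesion genes leaned toward ventral by a small amount. Of 43 found, 1 was counted as higher in ventral and 0 in dorsal, 11 differed by more than 1 toward ventral and 0 toward dorsal, and the median was 0.68. Tmprss2, for a membrane protease of epithelia, stood at 37.9 and 3.17 FPKM, a difference of 3.22. Epcam, for an epithelial adhesion molecule, stood at 343 and 163 FPKM, a difference of 1.07, and Cdh1, for E-cadherin, at 87.0 and 64.3, a difference of 0.43. Summed over the list, the level was 2909 FPKM in the ventral and 1826 in the dorsal bud, while Pdx1 was nearly equal.

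In Hedgehog signalling, a secreted ligand from epithelium relieves Smo of inhibition by Ptch1, and the Gli factors then act on target genes, often in the mesenchyme. Shh, the ligand kept out of early pancreatic endoderm, stood at 3.14 FPKM in the ventral and 0.417 in the dorsal bud, a difference of 1.55, short of the rule. Ihh, a second ligand, stood at 1.36 and 1.10 FPKM. The receptor gene Ptch1 (19.9 and 21.4 FPKM) and the transducer gene Smo (58.0 and 69.5) were alike. The effector genes Gli2 (0.823 and 15.4 FPKM) and Gli1 (1.36 and 13.9), itself a target, were counted as higher in dorsal with differences of -3.17 and -2.66, and Gli3 stood at 2.50 and 12.5. With Foxf1a, 3 of 18 members were counted as higher in dorsal and 0 in ventral, with a median of -0.23.

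Of 30 FGF pathway genes found, 2 were counted on each side, 26 on neither, and the median was -0.30. The counted dorsal genes were ligands. Fgf9, a growth signal to mesenchyme, stood at 0.477 and 17.6 FPKM, and Fgf10, which mesenchyme sends to pancreatic epithelium, at 0.740 and 15.5, its locus covering 0.74% of the annotated gene. The counted ventral genes encode receptor partners. Klb, the co-receptor for endocrine FGFs, stood at 18.6 and 2.67 FPKM and Flrt3 at 76.7 and 11.7, a difference of 2.61. The receptor gene Fgfr4 differed by 1.05 (49.3 and 23.2 FPKM). Fgfr2, the receptor for Fgf10, differed by 1.72 (92.3 and 27.3 FPKM), its locus covering under 30% of the annotated gene. The feedback inhibitor genes Il17rd and Dusp6, short of the rule, stood at 9.65 and 29.0 FPKM and at 12.7 and 29.1.

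Most Wnt genes differed by less than 1 between the buds, namely 48 of 51, 35 of 42 and 22 of 27 in the lists below. Of the 8838 named loci that reached 5 FPKM in either library, 91.9% did, and the lists have no such filter. The first list lies above that share and the others below it, so the Wnt genes are not more alike than other loci. Over all named loci 1.68% were counted in either direction, and the counts below are not under that share. The title of the study asks about non-canonical Wnt signalling in the choice between pancreas and liver, which is not the comparison made here. Of 51 non-canonical Wnt and planar polarity genes, 1 was counted as higher in dorsal and 0 in ventral, 3 differed by more than 1 toward dorsal and 0 toward ventral, and the median was -0.12. That gene was Daam2, for a formin that links Dishevelled to actin, at 0.728 and 17.3 FPKM. The receptor genes Fzd2 (21.4 and 18.9 FPKM) and Ror2 (20.1 and 23.5), the polarity genes Vangl2 (16.6 and 19.7) and Celsr1 (7.74 and 7.03) and the ligand gene Wnt5a (1.53 and 1.20) each differed by less than 0.5. Of 42 Wnt ligands, receptors and modulators, 1 was counted as higher in dorsal, the receptor gene Fzd5 at 6.01 and 30.2 FPKM, and 0 in ventral. Rspo2, for a secreted enhancer of Wnt signals, stood at 4.198 and 0.0247 FPKM, below the level of the rule its locus covering under 30% of the annotated gene. Of 27 canonical components and targets, Lef1, a DNA-binding partner of beta-catenin, was counted as higher in dorsal at 0.829 and 10.2 FPKM, and Cd44, for a hyaluronan receptor, as higher in ventral at 12.2 and 1.21. The common target Axin2 stood at 4.77 and 6.41 FPKM.

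Beside 1.68% of all named loci, to which 0 is near in lists of this size, BMP, TGF-beta and activin genes had 0 of 50 counted in either direction. Their median was -0.01, and Notch genes had 0 of 28 and a median of -0.04. Within these, Tgfb2, for a TGF-beta ligand, stood at 2.30 and 11.7 FPKM, and Dlk1, for a membrane protein related to Notch ligands and known from hepatoblasts, at 1718 and 485, a difference of 1.82. The ligand gene Dll1 (20.7 and 17.8 FPKM), the receptor gene Notch1 (29.5 and 17.95) and the target gene Hes1 (29.95 and 16.6) differed by less than 1. Of 20 retinoic acid genes, 1 was counted as higher in dorsal, Stra6, for the membrane receptor that takes up retinol, at 1.79 and 22.7 FPKM. Aldh1a2, for the enzyme that makes retinoic acid in the embryo, stood at 0.353 and 1.16 FPKM. The binding protein genes Crabp1 (68.1 and 19.3 FPKM) and Crabp2 (26.1 and 8.52) were higher in ventral by 1.77 and 1.51.

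Guidance genes had 2 of 61 counted as higher in ventral and 1 in dorsal, with a median of -0.26. Reln, given above, was 1 of the ventral genes, and Robo2, a receptor for Slit proteins, the other. Robo2 stood at 32.8 and 2.01 FPKM, a difference of 3.49. The related receptor gene Robo1 stood at 34.5 and 42.6 FPKM, and the ligand gene Slit2 lay on the dorsal side at 4.52 and 17.6, a difference of -1.75. Plxnd1, a semaphorin receptor gene of vessels, was the dorsal member. Of 58 growth factor and receptor genes, 4 were counted on each side, with a median of 0.13. Igf1, for insulin-like growth factor 1, stood at 1.13 and 33.0 FPKM, while its receptor gene Igf1r stood at 18.97 and 21.7. Gas6, the ligand of the TAM receptors, stood at 17.3 and 1.64 FPKM, and Ntf3, for a neurotrophin, at 0.657 and 6.69. Among 91 collagen, laminin, integrin and other matrix genes, 2 were counted as higher in ventral and 6 in dorsal, and the median was 0.08. Tnc led the dorsal side, with the collagen genes Col14a1 (0.302 and 7.20 FPKM), Col15a1 (0.648 and 6.54) and Col23a1 (1.40 and 9.10), and Col8a1 and Col5a2 whose loci cover under 30% of the annotated gene.

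Genes of glycolysis and the hypoxia response leaned toward ventral. Of 36 found, 2 were counted as higher in ventral and 0 in dorsal, 11 differed by more than 1 toward ventral and 0 toward dorsal, and the median was 0.59. The 2 counted were the glucose transporter genes Slc2a2 and Slc2a3, the latter at 67.8 and 9.13 FPKM. Bnip3, a mitophagy gene induced by hypoxia, stood at 95.9 and 23.8 FPKM, Pfkfb3, for a regulator of glycolytic flux, at 36.6 and 9.58, and Ldha, for lactate dehydrogenase, at 783 and 324. In liver the last 3 stood at 52.8, 42.9 and 973 FPKM. Housekeeping lists had medians near 0. Cell cycle genes had 0 of 51 counted and a median of -0.08, cytosolic ribosomal protein genes 0 of 54 and 0.10, and mitochondrial respiration genes 0 of 61 and 0.03. With 1.68% of all named loci counted, 0 in lists of this size is near that share. Of 13 reference genes 0 were counted, also near that share. Actb stood at 341 and 407 FPKM and B2m, for a subunit of major histocompatibility molecules, was the most different at 105 and 32.3.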

How the data were processed

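The authors deposited 1 table of FPKM values for 5 libraries, as the columns show per the file headers. TopHat 1.33, Cufflinks 1.3.0 and mm9 are listed, with no role, per the submitters' processing notes. How libraries were scaled to each other is not given in the sources used. Random hexamer priming with no strand marking, per the labels' protocols, leaves overlapping genes of opposite strands unresolved. Depth in reads is unknown: of 45 loci over 0 and under 0.1 FPKM in both pancreatic libraries, the most common ratio, to 2 decimals, was shared by only 2, so no whole reads were recovered. Summed FPKM of all loci was 473170 in ventral and 437581 in dorsal pancreas, and 11165 and 11037 named loci reached 1 FPKM.

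Differences used a pseudocount of 1 FPKM, which understates the change of low genes. No test was possible with 1 library per tissue. The script was tested on simulated data. Names, strand and span were checked against GENCODE M21 (GRCm38), and coordinates are those of the table. Genes are named by a rule: the 25 largest differences on each side, up to 8 members of each of 46 lists with the largest differences among those at 1 FPKM or more in either library, and a short set of lineage genes. From these the text prints a selection, by role. A few are not reported here. Outside the rule, chosen after values were seen, are Met, Cxcl12, Robo1, Igf1r, Tlx1, Wt1, Tie1, Sox10, Ptch1, Smo, Fgfr4, Axin2, Fzd2, Ror2, Vangl2, Celsr1, Dll1, Pax4, Afm, Adcy8, Fam198b, Ttr, Igf2 and H19. The members and lists were chosen with earlier results of these data known. List medians cover all found members, with no filter. The size limit, pseudocount, minimum, scaling and kinds of locus were varied. Python 3.11.15, numpy 2.4.6, pandas 2.3.3 and matplotlib 3.10.9 were used.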

Additional observations from a re-analysis of the deposited data

How the results depend on the processing

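With 1 library per tissue, left-out replicates could not be tried. Only the 2 rescalings can turn the sign of a single gene. They moved the median difference over all named loci from 0.012 to -0.013 and -0.004, while every counted gene differed by at least 2. That 0 of 114 counted genes changed sign was therefore fixed in advance and is no check. The counts moved: 34 ventral and 26 dorsal genes with a pseudocount of 5 FPKM, 406 and 306 at a difference of at least 1, 34 and 29 at a difference of at least 3, and 192 and 176 with every library set to a sum of 1000000, where the minimum of 5 FPKM also applied to the rescaled values. All 113 and 95 genes stayed among the 192 and 176, which is near automatic because that sum raised the values of both libraries. Their named totals were 335391 in ventral and 328629 in dorsal pancreas. The ventral share of calls ran from 52.2% to 57.0%. Of 46 list medians, 2 changed sign: the homeobox, Sox, forkhead, Gata and T-box list, from 0.0076 to -0.0170 with that sum and to -0.0082 with median ratios, and the imprinted list, from -0.0103 to 0.0110 without loci on the other strand or partial, an alternative added after seeing the data. Depth limits the low values, and without read counts no interval can be given.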

Other observations

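Imprinted genes, expressed from 1 parental copy, included members on both sides. Of 24 found, 1 was counted as higher in ventral and 1 in dorsal, and 4 differed by more than 1 toward ventral and 5 toward dorsal. Phlda2, a growth restrainer known from placenta, stood at 9.25 FPKM in the ventral and 0.726 in the dorsal bud, a difference of 2.57. Mest, a mesodermal gene, stood at 233 and 1010 FPKM, a difference of -2.11, and Peg10 at 126 and 286. Igf2 (876 and 652 FPKM) and H19 (2760.5 and 2068), which neighbour each other, differed by 0.43 and 0.42.

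Over all named loci 1.68% were counted in either direction, and the small counts of the 2 families below are not read as results about them. Of 212 solute carrier genes, 5 were counted as higher in ventral and 2 in dorsal, and the median was 0.08. Beyond 1 in size, 19 lay toward ventral and 4 toward dorsal. Slc28a2, for a nucleoside transporter, stood at 13.6 and 1.16 FPKM, and Slc44a5, a choline transporter-like gene, at 0.347 and 20.5. Of 133 ion channel genes, 1 was counted as higher in ventral and 2 in dorsal, and 3 differed by more than 1 toward ventral and 12 toward dorsal. Cacng7, for a calcium channel subunit, stood at 2.57 and 20.4 FPKM.

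Nepn, a leucine-rich repeat gene of foregut endoderm chosen after its values were seen, stood at 254 FPKM in the ventral and 602 in the dorsal bud, and at 0.512 in liver. Aldoart2, at a locus of 103 bp, stood at 142 and 2278 FPKM, and at 169 in liver, 244 in foregut and 13930 in medial foregut.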
